A study of Bos taurus with 18 samples.

Results

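The genes described here serve membrane traffic: the RAB GTPases, the vesicle coats and adaptors, the tethers, the sorting nexins and the ESCRT machinery of the endosome. They are all genes whose single listed symbol starts with RAB and a digit, VPS, SNX, SEC, CHMP, TRAPPC, CLT, with COPA, COPB, COPE, COPG or COPZ, or with AP1, AP2 or AP3 followed by B, M or S. The genes were taken by name. The rule took 211 probe sets of 150 genes out of the 9155 genes measured by a probe set with 1 listed symbol, and each gene was read from its probe set of highest mean over all arrays. Both probe sets of VPS4A were kept, a gene whose difference between the sexes was known beforehand. Another 3 probe sets were left out, because RAB9A or RAB33A stands in the annotation beside a second gene.

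RNA came from bovine blastocysts made by in vitro fertilisation and frozen 7 days after insemination, of mixed breed in every group and with no treatment. The groups were female embryos of bull 1, bull 2 and bull 3 and male embryos of the same bulls, made with sex-sorted semen. Each group had 3 Affymetrix bovine arrays, each with amplified RNA of a pool of 60 embryos of 1 sex and 1 bull, so that 9 female arrays stood against 9 male arrays. The labels do not tell if the pools are from separate fertilisations, so the spread behind each p-value is that between these pools and may be technical. In pooled embryos, fewer cells of a type and less RNA per cell cannot be told apart.

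Cells move proteins between organelles in small vesicles. Coats form them: COPII carries cargo out of the endoplasmic reticulum, COPI returns it from the Golgi apparatus, and clathrin with its adaptor complexes loads vesicles at the Golgi, endosomes and plasma membrane. RAB GTPases mark each membrane and recruit tethers that catch the incoming vesicle, while sorting nexins, retromer and ESCRT decide whether endosomal cargo is recycled or sent to the lysosome. In the blastocyst this traffic serves the trophectoderm, a polarised epithelium that has to deliver junction proteins and pumps to the right face of the cell.

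Each value is the log2 expression of a probe set on an array, the array medians ran from 5.33 to 5.49, and precision is limited by how many arrays there are. A level can be compared between arrays for 1 probe set, not between probe sets. XIST, the RNA of the inactive X chromosome, averaged 9.21 ± 0.23 in females and 6.63 ± 0.50 in males (mean ± SD over 9 arrays of each sex), with no overlap. Cell type markers did not all match between the sexes. Of 6 trophectoderm genes, IFNT2 (0.59 log2) and SSLP1 (0.75) were higher in females, PAG2 (-0.68) was higher in males, and KRT8, KRT18 and PTGS2 did not pass; the list's mean level per array was 9.72 to 10.33 in females and 9.49 to 10.18 in males. Of the inner cell mass, POU5F1 and SOX2 did not pass (10.05 to 10.47 in females, 10.11 to 10.49 in males). Of 3 primitive endoderm genes RBP4 was higher in females (0.92 log2), with list levels of 10.35 to 10.69 in females and 9.97 to 10.39 in males. The sperm genes PRM1 and TNP1 were both higher in females (list level 6.05 to 6.87 in females, 4.85 to 5.51 in males). Of 4 blood genes, HBB (0.81 log2) and HBA (0.26) were higher in females and CD68 (-0.43) in males (4.78 to 5.41 in females, 4.77 to 5.22 in males). Among 8 genes of cumulus and granulosa cells, females were higher for CYP19A1 and DCN and males for COL1A2 (5.84 to 6.67 in females, 5.71 to 6.59 in males), and none of 3 oocyte genes passed. The part of cell makeup and of these other cells in the results below was not tested. On 4 arrays the probe sets were spread more widely around their usual levels: female bull 1 replicate 3, male bull 1 replicate 2, male bull 2 replicate 1 and male bull 3 replicate 3.

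The first comparison asked which of these genes differ between female and male blastocysts. By limma's test over all probe sets, with Benjamini-Hochberg adjustment and a threshold of 0.05, 14 of the 150 genes passed toward females, 16 passed toward males and 120 did not pass. They are 20% of these genes, against 20.8% of all 9155 genes. By direction, 11.5% of all genes passed toward females and 9.31% toward males. Of the trafficking genes, 9.33% passed toward females and 10.7% toward males. The set thus stood close to the background in number. It was close in size too, with a median absolute difference of 0.096 log2 against 0.099 over all genes, and a median signed difference of -0.01 against -0.01.

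The counts moved with the arrays used. Leaving out 1 array gave 10 to 16 genes toward females and 12 to 19 toward males, and leaving out the 4 arrays of wide spread gave 12 and 22. Without 1 bull, 7 to 11 and 4 to 8 genes passed. Of the 30 genes, 10 passed under every alternative for the sex difference averaged over bulls in which they were tested. These were TRAPPC2, SNX12, AP1S2, SEC16B, RAB3D, RAB26 and RAB2A on the female side, and VPS33B, RAB28 and SNX5 on the male side. Fits of 1 bull alone are not counted among these alternatives. SEC16B and RAB26 were too dim for the alternative with the brighter 50% of probe sets. Each of the other 20 missed the threshold without at least 1 of the bulls, and SEC23IP, SEC31B, CHMP4B, TRAPPC6B, RAB6A and RAB30 also without the 4 arrays of wide spread. All 30 had the same sign in each of the 3 bulls, as the plot of the 30 differences shows, and 83 of the 150 did, which is again the share of all genes, 55.3%.

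**Figure D1:**
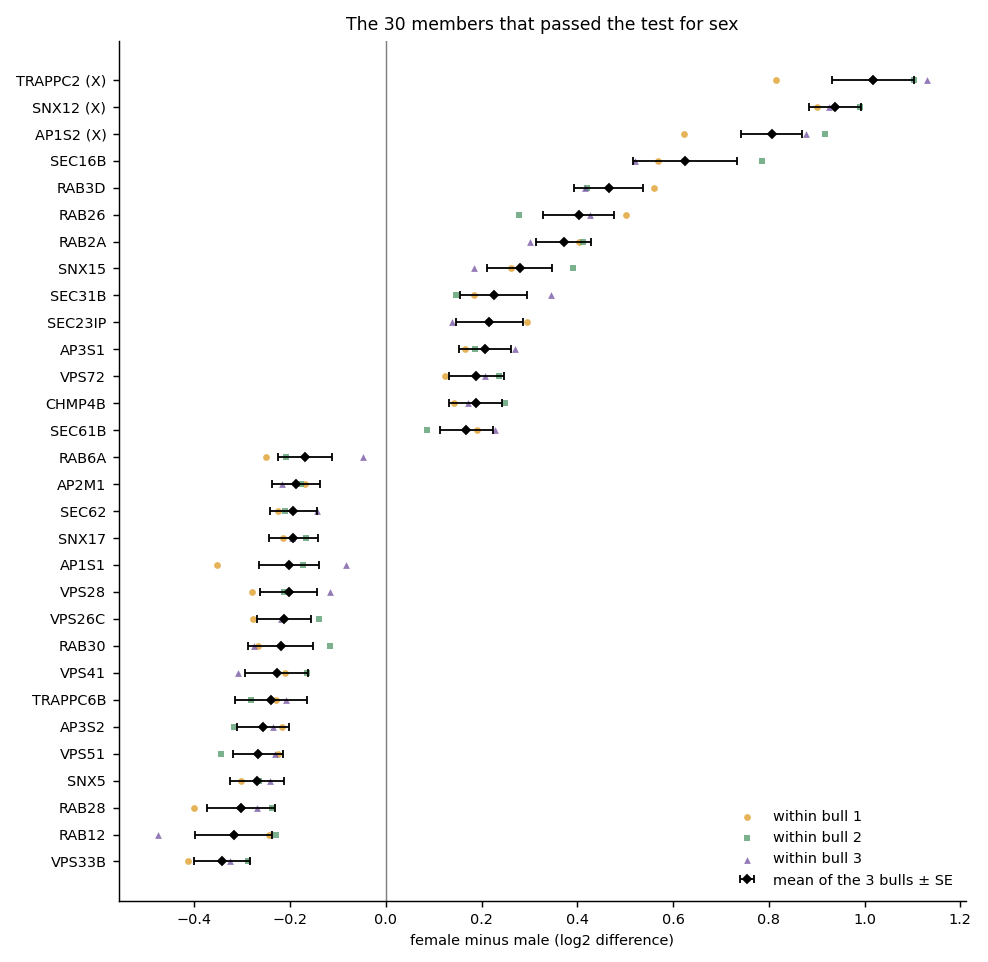
Differences between female and male arrays (female minus male, log2) of the 30 genes that passed the test, ordered by size. Black diamonds with bars are the mean of the 3 bulls ± SE and coloured symbols the value within each bull (3 arrays of each sex); TRAPPC2 lies farthest to the right at 1.02 and VPS33B farthest to the left at -0.34.

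The X-linked TRAPPC2, SNX12 and AP1S2 had the largest differences of the set, and all lay toward females. Of the 4 X-linked members 3 passed, where 70.0% of 297 X-linked genes were higher in females. Their median difference was 0.87 log2, against 0.44 over all X-linked genes. TRAPPC2, whose product sedlin is a subunit of the TRAPP tether between endoplasmic reticulum and Golgi, ranged from 8.45 to 9.04 with a median of 8.66 in females. In males it ranged from 7.12 to 8.16 with a median of 7.69. The sexes did not overlap, and the difference of 1.02 ± 0.09 log2 (SE) made TRAPPC2 2.02-fold higher in females (adjusted p = 1.46e-07). No other member reached 2-fold.

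SNX12, an endosomal sorting nexin, lay between 8.27 and 8.53 in females (median 8.34) and between 7.25 and 7.59 in males (median 7.45). Each female array was thus above each male array. The difference was 0.94 ± 0.05 log2 or 1.92-fold, with the smallest adjusted p of the set, 2.88e-09. It was 0.90, 0.99 and 0.93 log2 in bulls 1, 2 and 3.

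AP1S2, a small subunit of the AP-1 clathrin adaptor, ranged from 8.60 to 8.99 in females (median 8.89), against 7.83 to 8.34 in males (median 8.04). Again no arrays of the 2 sexes overlapped. It was higher in females by 0.81 ± 0.06 log2, 1.75-fold (adjusted p = 8.18e-08). The second probe sets of TRAPPC2 and AP1S2 gave smaller differences, 0.66 and 0.67 log2, and both passed (adjusted p = 2.7e-05 and 3.8e-05). On both of these the sexes overlapped: male bull 1 replicate 2 stood at 8.05 and 6.55, above the lowest females at 7.93 and 6.46. Between the 2 probe sets of a gene, deviations of the arrays from their group means correlated at r = 0.555 for TRAPPC2 and 0.053 for AP1S2. For the sex difference averaged over bulls, TRAPPC2, AP1S2 and SNX12 passed under all 31 alternatives. With the bull 1 arrays fitted alone, TRAPPC2 and SNX12 passed and AP1S2 did not.

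RAB9B, which belongs to the late endosomal RAB9 branch that returns receptors to the Golgi, did not pass. Its values ran from 3.25 to 3.96 in females and from 3.22 to 3.59 in males, and the sexes overlapped (0.13 ± 0.09 log2, adjusted p = 0.431). The probe set was dim, with a mean of 3.47 where the median of the 4 X-linked members was 8.04. Whether RAB9B is expressed at all was not tested.

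Autosomal relatives of the X-linked genes are set beside them in the plot of X-linked genes. TRAPPC2L, on chromosome 18, averaged 7.34 ± 0.12 in females and 7.35 ± 0.15 in males (adjusted p = 0.917), and the sign of its difference of -0.02 turned under several alternatives. SNX3, on chromosome 9, a nexin that works with retromer, averaged 12.50 ± 0.04 and 12.54 ± 0.07 in the same order (adjusted p = 0.654). AP1S1, on chromosome 25, passed in the direction opposite to AP1S2: it averaged 7.89 ± 0.09 in females and 8.09 ± 0.19 in males, with overlap (-0.20 ± 0.06 log2, adjusted p = 0.032). That call was lost when any 1 of 8 arrays was left out (adjusted p 0.0560 to 0.0719), and without bull 1 (0.21), bull 2 (0.165) or bull 3 (0.0581). Probe sets of close relatives can share sequence, and cross-hybridisation between them was not tested.

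**Figure D2:**
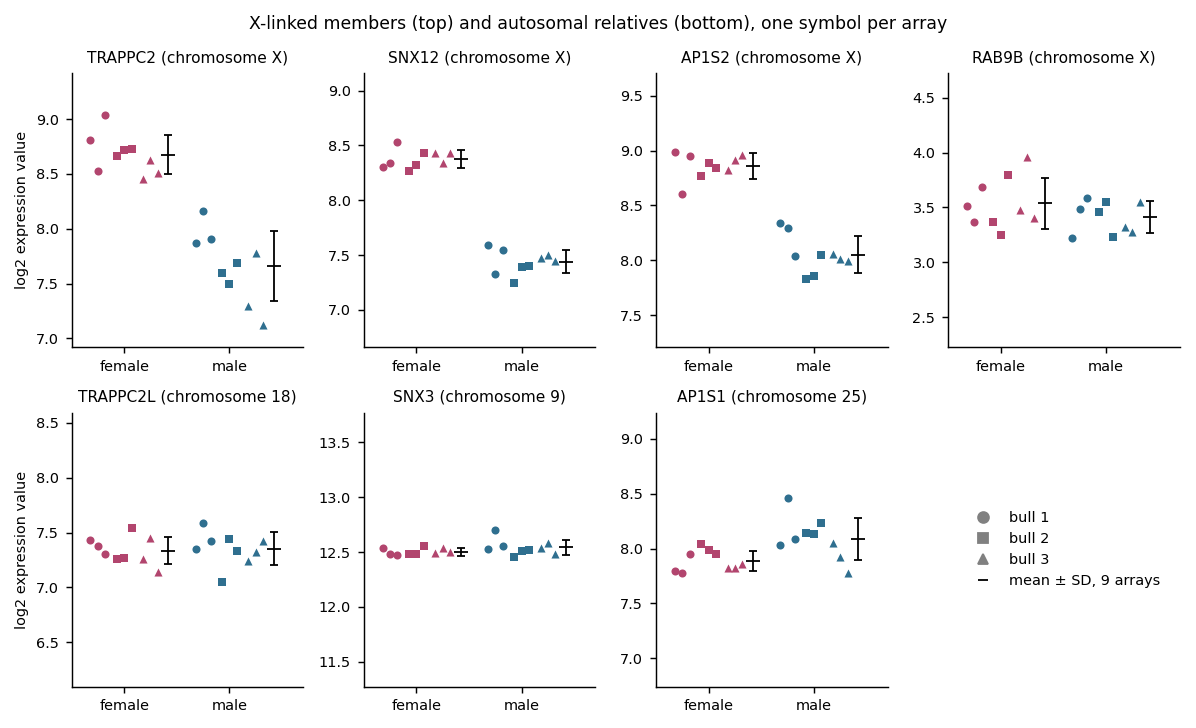
Log2 expression value of the 4 X-linked genes (top) and of 3 autosomal relatives (bottom) on each of 9 female and 9 male arrays; symbols mark the bull, and black bars the mean ± SD. Female and male arrays are apart for TRAPPC2, SNX12 and AP1S2 and overlap for RAB9B and for the 3 autosomal genes; each panel spans the same height on its own axis.

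Of the 146 autosomal members, 11 passed toward females and 16 toward males (18.5%, against 19.1% of all autosomal genes, 9.45% toward females and 9.62% toward males). The count toward females fell to 7 without female bull 2 replicate 1 and to 7 without male bull 1 replicate 1. On the brightest probe set of each gene, all autosomal differences were below 2-fold, from -0.34 to 0.62 log2. The largest and steadiest of them are given by role below. With X-linked members included, 17.9% of the RAB GTPases passed, 31.25% of clathrin and adaptors and 25% of the TRAPP tether. The share was 26.7% for sorting nexins and 11.1% for ESCRT and VPS4, against 20.8% of all genes. Most roles hold few genes, so these shares are only a description.

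Among 39 RAB GTPases, 3 passed toward females and 4 toward males, and the median difference was near 0 (-0.0002 log2). RAB2A, which acts between endoplasmic reticulum and Golgi, ranged from 9.66 to 9.96 in females (median 9.84) and from 9.31 to 9.59 in males (median 9.42). The sexes did not overlap, at 0.37 ± 0.06 log2 or 1.29-fold (adjusted p = 0.000151). RAB3D, a RAB of regulated secretion, ranged from 7.18 to 7.63 in females (median 7.24), against 6.67 to 7.07 in males (median 6.81). It too was without overlap (0.47 ± 0.07 log2, adjusted p = 0.000178). RAB26, linked to secretory granules and autophagy, averaged 4.97 ± 0.20 in females and 4.56 ± 0.17 in males, and its sexes overlapped because female bull 2 replicate 1 stood at 4.52 (0.40 ± 0.07 log2, adjusted p = 0.000728).

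On the male side, RAB28, a RAB known from photoreceptors and cilia, averaged 6.73 ± 0.13 in females and 7.03 ± 0.14 in males (-0.30 ± 0.07 log2, adjusted p = 0.0056). RAB12, which directs recycling receptors to lysosomes, had 7.06 ± 0.11 and 7.38 ± 0.23 in the same order (-0.32 ± 0.08 log2, adjusted p = 0.00999), and no longer passed without bull 3 (adjusted p = 0.106). RAB30, a Golgi RAB, differed by -0.22 ± 0.07 log2 (adjusted p = 0.0337), lost when any 1 of 8 arrays was left out (0.0559 to 0.0720). RAB6A, which organises traffic within the Golgi and is named after its values were seen, differed by -0.17 ± 0.06 log2 (adjusted p = 0.049), lost when any 1 of 15 arrays was left out. These 2 calls are therefore marginal.

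RAB11A, the RAB of the recycling endosome and of apical delivery in epithelia, had very even values. They lay between 12.49 and 12.61 in females and between 12.61 and 12.71 in males. Every female array was below every male array, yet the difference of -0.12 ± 0.04 log2 did not pass (adjusted p = 0.0784). Across the set, 9 of 150 genes (6%) had sexes that did not overlap, against 4.51% of all genes. Besides RAB11A these were TRAPPC2, SNX12, AP1S2, RAB2A, RAB3D, VPS33B, AP3S2 and AP2M1. None of the 5 RAB effectors and regulators passed (RAB11FIP2, RAB11FIP5, RAB3GAP1, RAB3GAP2 and RAB3IP).

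Of 11 genes of the COPII coat and early transport, 3 passed toward females and none toward males, where 11.5% of all genes passed toward females, and the median was 0.14 log2. These are few genes, and 2 of the 3 calls were unsteady, so the count is only a description. SEC16B, a scaffold of the sites where COPII buds, ranged from 3.53 to 4.56 in females (median 4.09) and from 3.14 to 3.75 in males (median 3.38). The sexes overlapped at the edges. The difference of 0.62 ± 0.11 log2, 1.54-fold, was the largest among the brightest probe sets of autosomal members (adjusted p = 0.000495). SEC31B, an outer coat subunit, differed by 0.23 ± 0.07 log2 (adjusted p = 0.0336), and SEC23IP, a partner of the inner coat, by 0.22 ± 0.07 log2 (adjusted p = 0.0415). Both were lost in several single-array removals (9 and 13 of 18) and without the 4 arrays of wide spread (adjusted p = 0.0507 and 0.0523). The other probe sets of SEC23IP gave -0.01 and 0.07 log2. The probe sets of SEC16B and SEC31B were dim, with means of 3.77 and 3.92 where the median of the 11 genes was 6.84. Whether SEC16B and SEC31B are expressed at all was not tested.

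None of the 8 COPI genes passed, with a median of -0.03 log2. The closest were COPB1 at 0.10 ± 0.05 log2 (adjusted p = 0.179) and COPZ1 at -0.12 ± 0.06 log2 (adjusted p = 0.192). COPG1, a gamma subunit, stood at -0.05 log2.

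**Figure D3:**
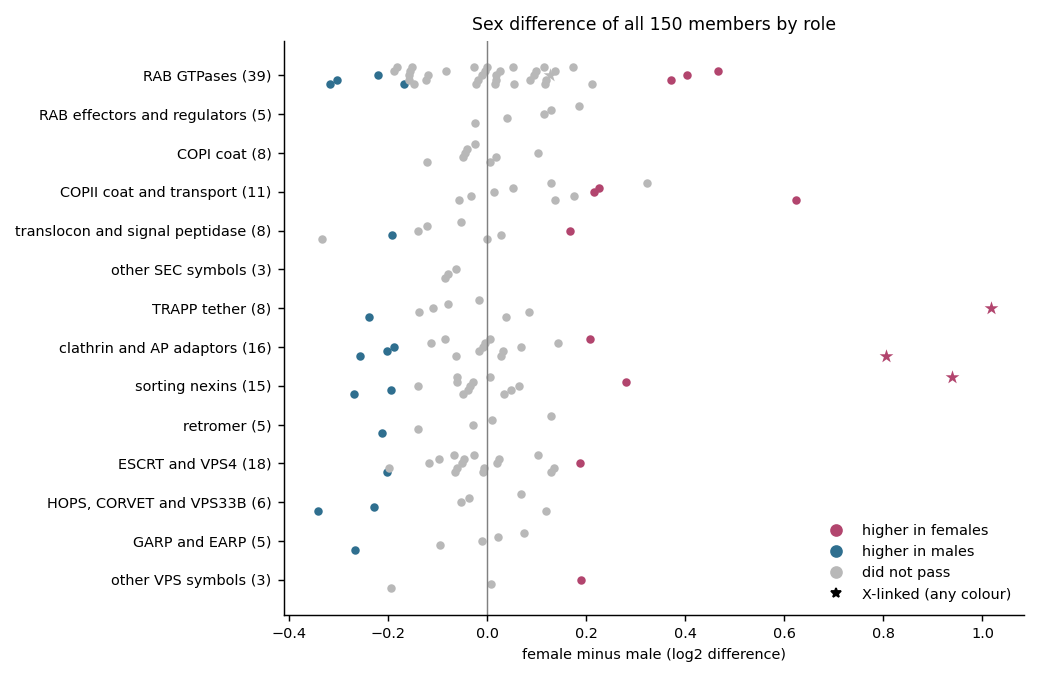
Female minus male difference (log2) of each of the 150 genes by role, with the number of genes per role; stars are X-linked. Red points passed toward females, blue points toward males and grey points did not pass; most points lie within 0.2 of 0, and the 3 red stars lie between 0.81 and 1.02.

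Clathrin and its adaptors held 16 genes, of which 2 were higher in females and 3 in males. The AP-3 complex, which sorts cargo to lysosomes and related organelles, had its small subunits on opposite sides. AP3S1 averaged 9.77 ± 0.11 in females and 9.57 ± 0.12 in males (0.21 ± 0.05 log2, adjusted p = 0.0114). AP3S2 ranged from 8.30 to 8.56 in females and from 8.60 to 8.82 in males, without overlap (-0.26 ± 0.05 log2, adjusted p = 0.0025). As the mean over its probe sets, AP3S2 did not pass (adjusted p = 0.123). AP2M1, the cargo-binding subunit of endocytic AP-2, was named after its values were seen: it ranged from 11.28 to 11.48 in females and from 11.49 to 11.69 in males (-0.19 ± 0.05 log2, adjusted p = 0.0136). AP3S2 missed the threshold without bull 2 (adjusted p = 0.0803), AP3S1 without bull 2 (0.0885) or bull 3 (0.16), and AP2M1 without bull 1 (0.0548), bull 2 (0.11) or bull 3 (0.115).

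The TRAPP tether had 8 genes, of which TRAPPC2 was higher in females and TRAPPC6B in males. TRAPPC6B averaged 6.64 ± 0.12 in females and 6.88 ± 0.20 in males (-0.24 ± 0.07 log2, adjusted p = 0.0357), and 12 of 18 single-array removals ended that call. Its second probe set gave -0.16 log2 and did not pass. TRAPPC4, another core subunit, stood at -0.14 log2 (adjusted p = 0.0921). Of 5 subunits of GARP and EARP, tethers for vesicles that return from endosomes, VPS51 alone passed. It averaged 8.83 ± 0.15 in females and 9.10 ± 0.10 in males (-0.27 ± 0.05 log2, adjusted p = 0.0014) and was lost without bull 2 (adjusted p = 0.081). VPS50, specific to EARP, and VPS53 gave 0.07 and -0.10 log2, of which that of VPS50 turned to -0.07 without the 4 arrays of wide spread.

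The tethers HOPS, of late endosomes, and CORVET, of early endosomes, were measured through 5 genes, of which VPS41 passed, higher in males. VPS33B, a relative of their subunit VPS33A that works in a separate complex with VIPAS39, was grouped beside them. It ranged from 7.04 to 7.37 in females (median 7.26), against 7.44 to 7.73 in males (median 7.59). The sexes did not overlap, and the difference of -0.34 ± 0.06 log2 was the largest toward males among the brightest probe sets of the members (adjusted p = 0.000374). The second probe set of VPS33B gave -0.17 log2 and did not pass. VPS41, a HOPS subunit, averaged 7.21 ± 0.09 in females and 7.44 ± 0.16 in males (-0.23 ± 0.07 log2, adjusted p = 0.0234). It missed the threshold without female bull 3 replicate 3 (adjusted p = 0.0553) or male bull 2 replicate 2 (0.0517). VPS41 also missed it without bull 1 (adjusted p = 0.0815), bull 2 (0.05235) or bull 3 (0.223), although its second probe set passed in the same direction. VPS11, a shared core subunit, gave 0.12 log2 and did not pass. With VPS33B included, 33.3% of these 6 genes passed, against 20.8% of all genes.

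Sorting nexins other than SNX12 passed in both directions. SNX5, a membrane-bending partner of the retromer route, ranged from 10.67 to 11.23 in females (median 11.12) and from 11.13 to 11.53 in males (median 11.38). The ranges overlapped, and SNX5 was lower in females (-0.27 ± 0.06 log2, adjusted p = 0.0025). SNX15, a nexin of endosomal sorting, averaged 7.50 ± 0.08 in females and 7.22 ± 0.17 in males (0.28 ± 0.07 log2, adjusted p = 0.0072), lost without bull 2 (adjusted p = 0.15). SNX17, which recycles receptors and was named after its values were seen, differed by -0.19 ± 0.05 log2 (adjusted p = 0.0125). It missed the threshold without bull 2 (adjusted p = 0.105) or bull 3 (0.109). Of the 15 nexins, 2 passed in each direction.

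The retromer subunits VPS29 and VPS35 did not pass, at -0.14 ± 0.05 and 0.13 ± 0.05 log2 (adjusted p = 0.0717 and 0.114). VPS26C, which the symbol places beside them but which works in the related retriever complex, averaged 7.54 ± 0.10 in females and 7.76 ± 0.14 in males. That difference, -0.21 ± 0.06 log2, passed (adjusted p = 0.0132), and was lost without each of the bulls (adjusted p 0.0703 to 0.0898).

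ESCRT and VPS4 proteins, which bud membrane away from the cytosol and then dismantle the filament, made up 18 genes. CHMP4B, the main filament subunit of ESCRT-III, averaged 9.18 ± 0.09 in females and 8.99 ± 0.12 in males (0.19 ± 0.06 log2, adjusted p = 0.0253). It did not pass without female bull 2 replicate 1 (adjusted p = 0.0543), without female bull 3 replicate 2 (0.0503), or without the 4 arrays of wide spread (0.0876), and its second, much dimmer probe set gave -0.01 log2. VPS28, of ESCRT-I, averaged 10.52 ± 0.08 in females and 10.72 ± 0.14 in males (-0.20 ± 0.06 log2, adjusted p = 0.0262), lost when any 1 of 6 arrays was left out. The other 16 did not pass on the brightest probe set.

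VPS4A, the ATPase that dismantles ESCRT-III, lies on chromosome 18 and had 2 probe sets, shown array by array in the plot of VPS4A. On the brighter one, females had 7.62, 7.82 and 7.73 for bull 1, 7.75, 7.61 and 7.68 for bull 2, and 8.14, 8.02 and 7.64 for bull 3. Males had 7.91, 8.06 and 7.94, then 7.69, 7.95 and 7.82, then 8.09, 8.03 and 8.31 in the same order of bulls. The sexes overlapped, and the difference of -0.20 ± 0.07 log2 missed the threshold (adjusted p = 0.0616), with -0.25, -0.14 and -0.21 in bulls 1, 2 and 3.

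On the dimmer one, females had 6.04, 6.33 and 5.46 for bull 1, 6.08, 6.17 and 5.98 for bull 2, and 6.27, 6.11 and 5.87 for bull 3. Males had 6.58, 6.75 and 6.74, then 6.77, 6.78 and 6.63, then 6.88, 6.68 and 7.20. Every female array lay below every male array. The difference was -0.75 ± 0.10 log2 (adjusted p = 2.9e-05), with -0.75, -0.65 and -0.84 in bulls 1, 2 and 3, and it remained at -0.60 without the 4 arrays of wide spread. VPS4A had been singled out for this difference, so that it is a description. Over the 18 arrays, deviations from the group means correlated at r = 0.509 between the 2 probe sets, which share the arrays. Where each lies on the transcript was not analysed here, and whether their differences differ was not tested.

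**Figure D4:**
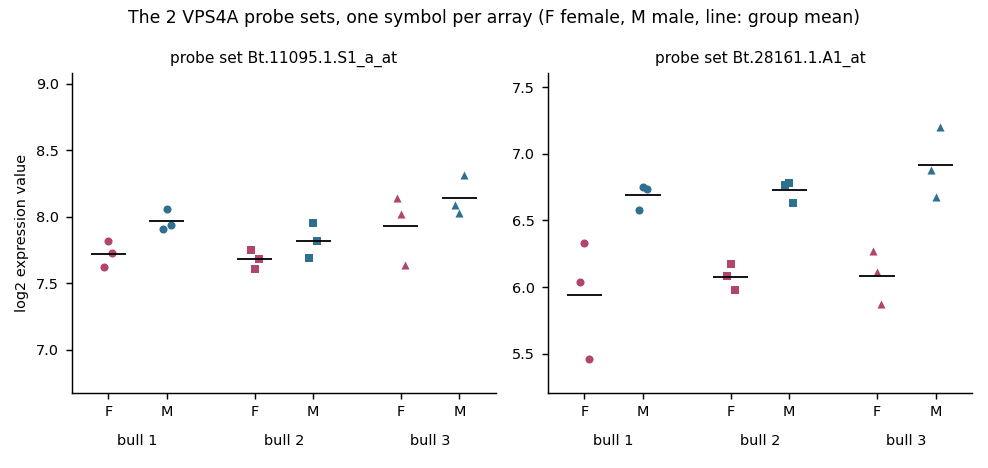
Log2 expression value of the 2 VPS4A probe sets on each array by bull and sex (F female, M male; lines are means of 3 arrays); each panel has its own axis of equal height. On the left (the brighter probe set) the sexes overlap, and on the right (the dimmer) each female array lies below each male array, with the lowest at 5.46 in female bull 1 replicate 3.

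A second probe set also mattered for other members. Of the 50 genes with more than 1 probe set, 29 had the same sign on all of them. Over all probe sets on the arrays 15.6% passed. The brightest probe set passed in 10 of the 50 genes, and a further probe set passed the same way in 3 (TRAPPC2, AP1S2 and VPS41). In 5 genes the brightest did not pass but another did, each higher in males: besides VPS4A these were CHMP3 (-0.31 log2), RAB5B (-0.31), RAB8A (-0.22) and CHMP6 (-0.17), named after their values were seen. No gene passed in both directions.

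The protein-conducting channel of the endoplasmic reticulum and the signal peptidase also fall under the SEC symbols, with 8 genes. SEC61B, a channel subunit, was higher in females by 0.17 ± 0.05 log2 (adjusted p = 0.0445) and SEC62, an accessory of the channel, was higher in males (-0.19 ± 0.05 log2, adjusted p = 0.011). The call of SEC61B was lost in 14 of 18 single-array removals, and that of SEC62 with the mean over its probe sets (adjusted p = 0.32), the second of which gave 0.02 log2. Without any 1 of the bulls both calls were lost (adjusted p 0.122 to 0.273 for SEC61B and 0.0568 to 0.133 for SEC62). SEC11C, a catalytic subunit of signal peptidase, ranged from 9.28 to 10.16 in females and from 9.13 to 10.57 in males. It did not pass (-0.33 ± 0.12 log2, adjusted p = 0.0591), while without the 4 arrays of wide spread it did (-0.52 log2, adjusted p = 0.0014). Its lowest male value, 9.13, came from male bull 3 replicate 3, one of the 4.

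The remaining symbols of the rule fall outside the roles above, and some of them name proteins of other work. VPS72, a chromatin protein, was higher in females by 0.19 ± 0.06 log2 (adjusted p = 0.0286), and 7 single-array removals ended the call. VPS13D, a lipid transfer protein, and VPS45, a SNARE regulator, did not pass (-0.19 and 0.01 log2). None of SEC14L1, SEC14L2 and SECTM1 passed.

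Within single bulls fewer genes passed, since each comparison rests on 3 arrays of each sex. For bull 1, 7 members passed (TRAPPC2, SNX12, AP1S2, RAB2A, RAB3D and RAB26 higher in females, VPS33B higher in males), or 4 to 7 with 1 array left out, where 6.03% of all genes passed. For bull 2, 6 passed (TRAPPC2, SNX12, AP1S2, RAB2A and SEC16B higher in females, VPS51 higher in males), where 4.59% of genes did, and 3 to 7 with 1 array left out. For bull 3, TRAPPC2, SNX12 and AP1S2 passed, where 5.92% of genes did. The difference of TRAPPC2 was 0.82, 1.10 and 1.13 log2 for bulls 1, 2 and 3, and that of AP1S2 0.62, 0.92 and 0.88 log2.

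Whether a sex difference itself differed between bulls was tested by the interaction of sex and bull. No member passed in limma's test (smallest adjusted p = 1), with 2 of 150 at an unadjusted p under 0.05, against 2.73% of all probe sets. None of the alternatives run for it gave a call.

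The bulls were compared next, averaging the sexes, with 6 arrays each. Each bull is a single sire, the 3 comparisons share arrays, and an unlabelled batch cannot be told apart from a bull. The bulls also differed in a sign of RNA quality, the 5′ minus 3′ signal of 3 control transcripts (log2), which ran from -1.27 to -0.36 for bull 3 (median -0.59), from -0.38 to -0.13 for bull 2 (median -0.25) and from -0.44 to 0.45 for bull 1 (median -0.15). Between bull 3 and bull 1, 4 members were lower in bull 3, where 3.6% of all genes passed. Between bull 3 and bull 2, VPS52 and SNX9 passed, where 3.33% did. Between bull 2 and bull 1 limma called none of the members, where 2.04% of all genes passed. At an unadjusted p under 0.05 stood 33 of the 150 members and 19.8% of all genes.

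SEC11C ranged from 9.13 to 10.08 for bull 3 (median 9.44), from 9.40 to 10.23 for bull 2 (median 9.82) and from 9.65 to 10.57 for bull 1 (median 10.11). Bull 3 and bull 1 overlapped, and their difference was -0.56 ± 0.14 log2 (adjusted p = 0.0357). TRAPPC2 averaged 7.97, 8.15 and 8.39 for bulls 3, 2 and 1, and its bull 3 minus bull 1 difference of -0.42 ± 0.10 log2 (adjusted p = 0.0333) stands beside its larger one of 1.02 log2 between the sexes. SNX6, the partner of SNX5, averaged 10.05 ± 0.12, 10.19 ± 0.09 and 10.35 ± 0.18 in the same order (bull 3 minus bull 1 -0.29 ± 0.08 log2, adjusted p = 0.0378).

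CHMP5, an ESCRT-III regulator named after its values were seen, lay between 10.17 and 10.26 for bull 3 and between 10.34 and 10.61 for bull 1, without overlap (-0.27 ± 0.06 log2, adjusted p = 0.0267). VPS52, a core subunit of GARP and EARP, lay between 8.56 and 8.83 for bull 3 and between 8.10 and 8.54 for bull 2. These did not overlap either (0.35 ± 0.08 log2, adjusted p = 0.0263). SNX9, a nexin of endocytosis, averaged 9.64 ± 0.21 for bull 3 and 9.96 ± 0.06 for bull 2 (-0.33 ± 0.09 log2, adjusted p = 0.0411), with male bull 3 replicate 3 far below the rest at 9.27.

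The bull differences were less steady than those of sex. Leaving out 1 array gave 0 to 11 members for bull 3 against bull 1 and 0 to 6 for bull 3 against bull 2. Without the 4 arrays of wide spread, none of these 6 passed but SNX4, named after its values were seen, did for bull 3 against bull 1. The 6 then stood at adjusted p-values of 0.0852 for SEC11C, 0.216 for TRAPPC2, 0.111 for SNX6, 0.0917 for CHMP5, 0.0532 for VPS52 and 0.0673 for SNX9. With the 5′ minus 3′ signal as a covariate none of the members passed for any pair of bulls, and the difference of TRAPPC2 became -0.12 log2 (adjusted p = 0.975), of SEC11C -0.34 (0.917), of SNX6 -0.17 (0.918), of CHMP5 -0.21 (0.826), of SNX9 -0.17 (0.422) and of VPS52 0.38 (0.147). With that covariate 5 of all 9155 genes passed between bull 3 and bull 1 and 66 between bull 3 and bull 2. The signal itself differed between the bulls, so this fit does not cleanly separate it from the bull. What the lost calls reflect was not tested.

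**Figure D5:**
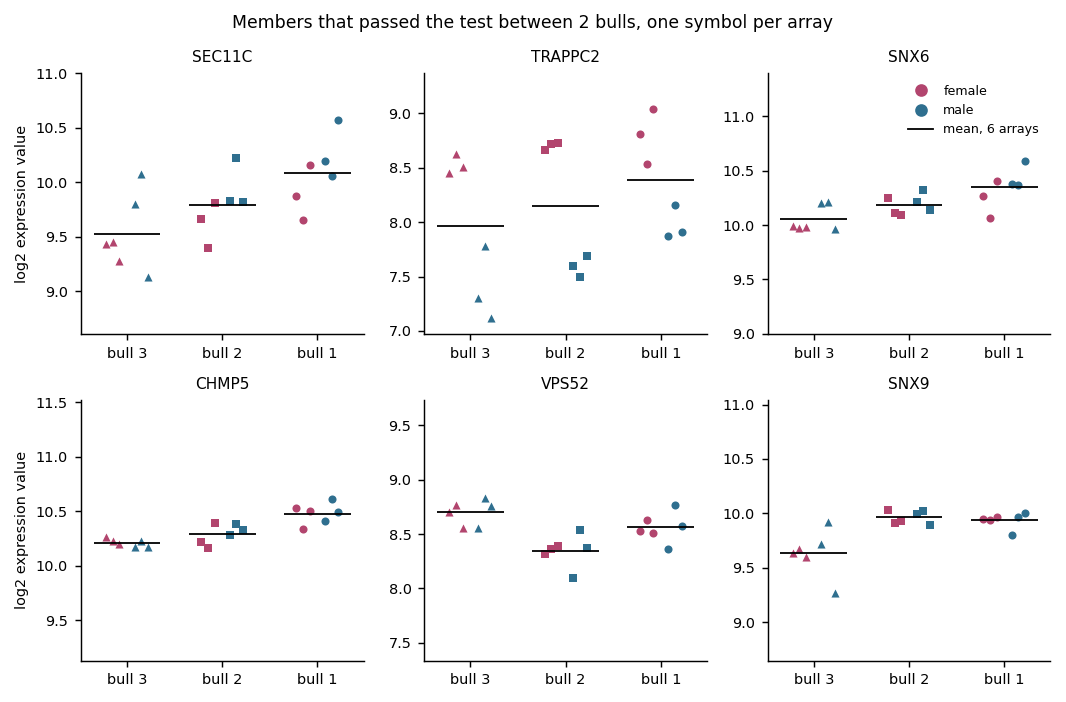
Log2 expression value on each array, by bull, of the 6 genes that passed between 2 bulls; lines are means of 6 arrays, colours the sexes. Bull 3 lies lower than bull 1 for SEC11C, TRAPPC2, SNX6 and CHMP5, higher than bull 2 for VPS52 and lower than bull 2 for SNX9; each panel spans the same height on its own axis.

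Other genes of the same pathway, whose symbols the rule does not take, were read from a list of 131 ARF GTPases, SNAREs, further adaptor and ESCRT subunits, COG and exocyst tethers and RAB regulators. Of the 99 measured, 11 passed toward females and 8 toward males (19.2%, near the 20.8% of all genes), and the median difference was -0.04 log2. Leaving out 1 array gave 9 to 11 and 5 to 9. Both X-linked genes of the list passed. VAMP7, a SNARE of lysosomal and apical fusion, averaged 7.41 ± 0.23 in females and 6.65 ± 0.36 in males (0.76 log2, adjusted p = 5.3e-05), and BCAP31, a chaperone that escorts cargo out of the endoplasmic reticulum, 11.49 ± 0.07 and 10.85 ± 0.20 in the same order (0.65 log2, adjusted p = 2.5e-06).

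Of the autosomal genes of that list, STAM, of ESCRT-0, was higher in females at 7.41 to 7.58, against 6.74 to 7.30 in males (0.46 log2, adjusted p = 0.00064), without overlap. Across the list, 5 of 99 genes (5.05%) had sexes without overlap, against 4.51% of all genes. BCAP31, COG4 and RABGGTA were also among them. RABAC1, which binds prenylated RABs, was higher in females by 0.30 log2 (adjusted p = 0.0202). Toward males stood the Golgi tether subunits COG1 (-0.35 log2, adjusted p = 0.0011) and COG4 (-0.32 log2, adjusted p = 0.0032), the SNARE SNAP25 (-0.33 log2, adjusted p = 0.0107) and RABGGTA, a subunit of the enzyme that attaches lipid to RABs (-0.29 log2, adjusted p = 0.0034). RABAC1, SNAP25, COG4 and RABGGTA missed the threshold without bull 2 (adjusted p 0.0537 to 0.0958). RABAC1 did so without bull 3 too, at 0.19 log2 (adjusted p = 0.229), as did SNAP25 (adjusted p = 0.0629), and COG4 as the mean over its probe sets, at -0.14 log2 (adjusted p = 0.068).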

How the data were processed

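The deposited table holds 1 log2 value for each probe set and array (18 arrays), a scale read from their range of 1.89 to 14.15. The authors' steps are not given beyond RMA and Partek 6.4, which the submitters' processing notes name without a role, and the labels' protocol states amplification from 50 ng of RNA. Of 24128 probe sets, 112 array controls were left out and 24016 tested. In GEO's platform annotation 13292 have 1 gene, 86 several and 10638 none. A table of ARS-UCD2.0, matched by gene number for 13263, gave current symbols and chromosomes.

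A limma fit (version 3.58.1, R 4.3.3, lmFit then eBayes) took the means of the 6 combinations of sex and bull and left 12 residual degrees of freedom. Contrasts were the sex difference averaged over and within bulls, its interaction with bull, and the pairs of bulls. The p-values were adjusted over all probe sets with a threshold of 0.05. Simulated data (24016 probe sets, even noise) recovered 36% of 100 sex changes of 0.3 log2 and 93% of 100 of 0.6, with 6 false among 135 calls. Far fewer probe sets were changed there than passed for sex in the data, which makes the adjustment stricter, so these shares do not carry over.

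The members and lists were chosen with earlier results of these data known. Genes were named if among the 12 largest per direction that passed for sex, X-linked or a relative of an X-linked member, VPS4A, among the 3 largest per pair of bulls, among the 3 brightest or dimmest, or among the 3 of smallest p in their role. Those of the pathway list were the 4 largest per direction. Alternatives were an additive model, the brighter 50% of probe sets, quantile normalization, an intensity trend, array weights, the sample number as a block, bull as the replicate, averaging the probe sets of a gene, each bull alone, and leaving out each bull or array. Leaving out 4 arrays whose relative log expression had an interquartile range above 0.25, and the 5′ to 3′ signal of 3 control transcripts as a covariate, were chosen later, with the values in view. No source used here gives scan dates or batches.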

Additional observations from a re-analysis of the deposited data

Results flagged for a closer look

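Single arrays far from the other 8 of their sex were looked for among the named genes. Of 116 groups of 9 arrays, 12 held such a value by Dixon's test at the 95% level, which chance alone gives in about 1 of 20 groups.

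Female bull 1 replicate 3 was the far array in 7 of them. It stood at 12.76 for CLTA, a clathrin light chain (next female 12.60), at 10.93 for VPS35 (next 10.65) and at 9.39 for CHMP4B (next 9.21). It stood below the other females at 5.51 for VPS13D (next 5.94), 6.78 for RAB30 (next 7.15), 10.67 for SNX5 (next 11.02) and 9.55 for RAB6A (next 9.74). In the genes among these that passed for sex, the array lay farther in the direction of the sex difference.

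Male bull 1 replicate 2 was low for VPS11, at 7.32 (next male 7.69), and high for SECTM1, at 3.51 (next 3.18). Male bull 3 replicate 3 was high for the dimmer VPS4A probe set, at 7.20 (next 6.88), and low for SNX9, at 9.27 (next 9.72). These 3 arrays are among the 4 of wide spread. The last value, VPS35 at 10.34 in male bull 3 replicate 1 (next 10.43), is on an array that is not.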

How the results depend on the processing

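The 3 X-linked calls held in all 31 alternatives for the sex difference averaged over bulls, and the 0 interaction calls in each run for the interaction. Fits of 1 bull alone are not among these 31. Members higher in females (14) became 22 with array weights, 7 without bull 2 and 8 without bull 3. Members higher in males (16, all autosomal) became 28 among the brighter 50% of probe sets, 25 with an intensity trend, 9 with bull as the replicate, and 8, 4 and 5 without bulls 1, 2 and 3. Autosomal members higher in females (11) became 19 with array weights, 7 with bull as the replicate, 4 without bull 2 and 5 without bull 3, and 7 to 13 without 1 array. Genes of the pathway list became 7, 6 and 5 toward females (11) without bulls 1, 2 and 3, and toward males (8) 13 with array weights and 5, 1 and 3 without those bulls, or 5 to 9 without 1 array. Fewer arrays went into the fits without a bull; for the other changes the cause was not tested.

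Calls within bull 1 (7) numbered 2 when its arrays were fitted alone (TRAPPC2 and SNX12), and 4 to 7 without 1 array; those within bull 2 (6) numbered 3 to 7. Calls for bull 3 against bull 1 (4) became 2 with the replicate block (CHMP5 and TRAPPC2), 1 without the 4 arrays of wide spread and 0 to 11 without 1 array. Those for bull 3 against bull 2 (2) became 0 without the 4 arrays and 0 to 6 without 1. The sample numbers gave no sign of pairing over all groups. Deviations of same-numbered arrays correlated at -0.229 to 0.164 and those of differently numbered arrays at -0.179 to 0.215. Pairing of the sexes within a bull was not tested separately. The block gave 13 members higher in females and 15 in males and 0 for the interaction.

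The brighter VPS4A probe set passed in the additive model (-0.1989), among the brighter 50% (-0.1989), with an intensity trend (-0.1989) and after quantile normalization (-0.2010), and ran from -0.2325 to -0.1505 without 1 array. Differences near 0 changed sign: COPG1 without bull 3 (0.0153), TRAPPC2L with array weights (0.0200), without bull 1 (0.0186) and over single arrays (-0.0532 to 0.0118), VPS45 as the mean over probe sets (-0.0526), without bull 1 (-0.0695) and over single arrays (-0.0250 to 0.0516), and VPS50 with array weights (-0.0187) and without the 4 arrays (-0.0679).

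With the 5′ to 3′ signal as a covariate, 15 members passed toward females and 18 toward males, and 0 for bull 3 against bull 1 or bull 2. The bulls differed in that signal, so the fit does not cleanly separate it from the bull. Differences near 0.3 log2 may be missed at this number of arrays, but how often was not measured. The simulated recovery of 36% holds for a setting with far fewer changed probe sets than the 3743 that passed for sex here.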
